A study of Homo sapiens with 2 samples.

Results

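The mRNAs of 10 core glycolytic enzymes were compared in cells given iMQT_020 and cells given vehicle, isozyme by isozyme. They were chosen by symbol, as HK2, PFKL, PFKM, PFKP, ALDOA, TPI1, GAPDH, PGK1, ENO1 and PKM, and all 10 symbols were found among 46427 gene rows. Each also passed the minimum of 50 counts in a library that left 14805 measured genes. One library came from cells exposed for 48 hours to iMQT_020, which the study describes as an inhibitor of the mitochondrial glutamine transporter, and 1 from cells given vehicle for the same time. Both are labelled MiaPaca2 (MIA PaCa-2), a line from a human pancreatic adenocarcinoma. With n = 1 library in each group no difference below has a replicate check and no p-value was computed, and treatment cannot be told apart from any other difference between the libraries.

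Glycolysis converts glucose to pyruvate in the cytosol. Hexokinase traps glucose as a phosphate ester, phosphofructokinase commits it to breakdown, and aldolase splits the sugar into triose phosphates that triosephosphate isomerase interconverts. GAPDH, phosphoglycerate kinase, enolase and pyruvate kinase then carry out the steps that yield NADH, ATP and pyruvate. Many carcinomas run this pathway at a high rate even with oxygen, and several of its genes are known targets of hypoxia-inducible factor and of MYC.

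The libraries held 59139157 (iMQT_020) and 67095283 (vehicle) estimated counts. Transcripts encoded by mitochondrial DNA, other than rRNA, took 3.18% of the counts in the iMQT_020 library and 1.72% in the vehicle library. With these and rRNA genes left out of the totals, all 10 enzymes were still lower in the iMQT_020 library, from a log2 ratio of −0.82 (ALDOA) to −0.16 (PFKM). The labelled line is known to lack CDKN2A, yet this gene was at 208 TPM (iMQT_020) and 278 TPM (vehicle), so the identity of the cells is uncertain. TPM (transcripts-per-million) scales reads by transcript length and is the unit in which genes are compared with each other here. Of 5 markers of pancreatic epithelium, KRT8 was at 92.3 (iMQT_020) and 128 TPM (vehicle) and KRT18 at 77.5 (iMQT_020) and 97.4 TPM (vehicle), while KRT7 and KRT19 had 0 counts in both libraries and EPCAM had 0 (iMQT_020) and 4 (vehicle). VIM, the vimentin gene of mesenchymal-like carcinoma cells, was at 438 TPM (iMQT_020) and 403 TPM (vehicle). A count of 0 allows up to 3 counts, 0.0510 CPM (counts-per-million) in the iMQT_020 library and 0.0445 CPM in the vehicle library. Summed levels of the markers of other cells were 11.3 (iMQT_020) and 16.8 TPM (vehicle) for 5 fibroblast genes. Nearly all of this was COL1A1, at 11.1 (iMQT_020) and 16.5 TPM (vehicle), while COL1A2 and DCN were at 0 in both libraries. The 3 muscle genes summed to 4.18 (iMQT_020) and 1.55 TPM (vehicle). The 2 immune genes summed to 1.44 (iMQT_020) and 0.985 TPM (vehicle). Of these, CD68 had 64 (iMQT_020) and 51 counts (vehicle), and PTPRC had 0 in both. The 2 endothelial genes summed to 0.202 (iMQT_020) and 0.0163 TPM (vehicle), with PECAM1 at 29 counts (iMQT_020) and 0 (vehicle). The part of such cells in the results was not tested.

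The enzymes of the later steps were among the most abundant mRNAs of these cells. GAPDH was at 3720.4 TPM in the iMQT_020 library and 4214 TPM in the vehicle library, ranking 28 (iMQT_020) and 21 (vehicle) among all gene rows. ENO1 followed at 2239.9 TPM (iMQT_020) and 2797 TPM (vehicle). ALDOA, TPI1 and PKM lay between 865 and 1319 TPM in the iMQT_020 library and between 1180.6 and 1961 TPM in the vehicle library. PGK1 was lower, at 229 TPM (iMQT_020) and 286 TPM (vehicle). The regulated early steps were scarcer, from 30.0 TPM (PFKP) to 87.7 TPM (PFKM) in the iMQT_020 library and from 44.2 TPM (HK2) to 93.6 TPM (PFKL) in the vehicle library. GAPDH mRNA thus outnumbered HK2 mRNA 117-fold in the iMQT_020 library and 95.3-fold in the vehicle library. Summed over the 10 genes, the level was 9725 TPM (iMQT_020) and 11949 TPM (vehicle), a log2 ratio of −0.30.

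**Figure D1:**
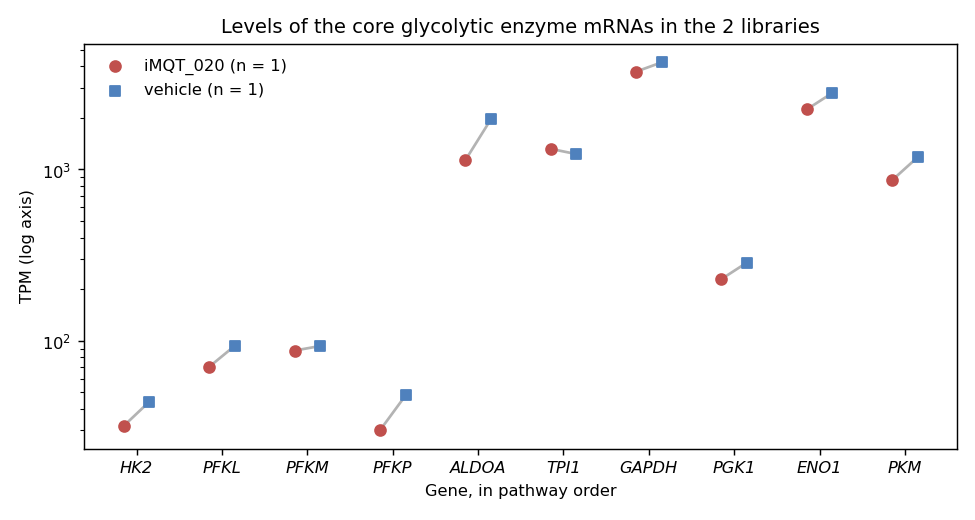
Levels of the 10 enzyme mRNAs in pathway order, in TPM on a log axis, with the iMQT_020 library (circles) left of the vehicle library (squares). The iMQT_020 value is the lower of the pair for every gene except TPI1, and the genes from aldolase onward other than PGK1 stand at 865 TPM or more.

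All 10 enzyme mRNAs had lower scaled counts in the iMQT_020 library than in the vehicle library. As log2 of iMQT_020 CPM over vehicle CPM, their ratios ran from −0.83 (ALDOA) to −0.16 (PFKM), with a median of −0.39. Among all measured genes 50.4% had a ratio below 0, and the median was −0.00. ALDOA and PFKP, 2 of 10, were at least 1.5-fold lower, a size reached by 9.68% of measured genes and by 4.94% of those with 1000 counts or more in a library. With ratios centred on genes of like GC content and length, neither was 1.5-fold lower (ALDOA −0.54, PFKP −0.56), and ALDOA was at −0.45 when summed with a gene that overlaps it. Uncentred and alone, both had counting intervals wholly past 1.5-fold, as did 4.92% of measured genes. Of the 10, 0 were at least 1.5-fold higher (6.71% of measured genes), 0 at least 2-fold lower (2.92%) and 0 at least 2-fold higher (2.24%). By TPM, 9 of 10 were below 0, beside 47.7% of genes at 1 TPM or more in a library, 2 were at least 1.5-fold lower (7.1%) and 0 that much higher (4.76%). By FPKM, another length-scaled unit, 9 of 10 were below 0 (53%), 2 were at least 1.5-fold lower (5.85%) and 0 that much higher (1.85%). TPI1 was the enzyme above 0 in both units. In a bulk sample fewer cells of a type and less RNA per cell cannot be told apart.

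Intervals in brackets below are exact 95% intervals of the ratio that cover counting error only. At this depth they are narrow, and those of 40 of the 45 pairs of enzymes did not overlap. The ratios in those 40 pairs therefore differed by more than counting error, but the spread of the ratios between cultures is not known. The same share was not computed for pairs of other genes, so it marks nothing particular to these enzymes. The 5 overlapping pairs were HK2 with PFKL, HK2 with PKM, PFKL with PKM, PFKM with GAPDH, and PGK1 with ENO1. In this count ALDOA stands by its row alone. Summed with the gene that overlaps it, ALDOA had an interval of −0.46 to −0.43, which overlapped those of HK2, PFKL and PKM.

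**Figure D2:**
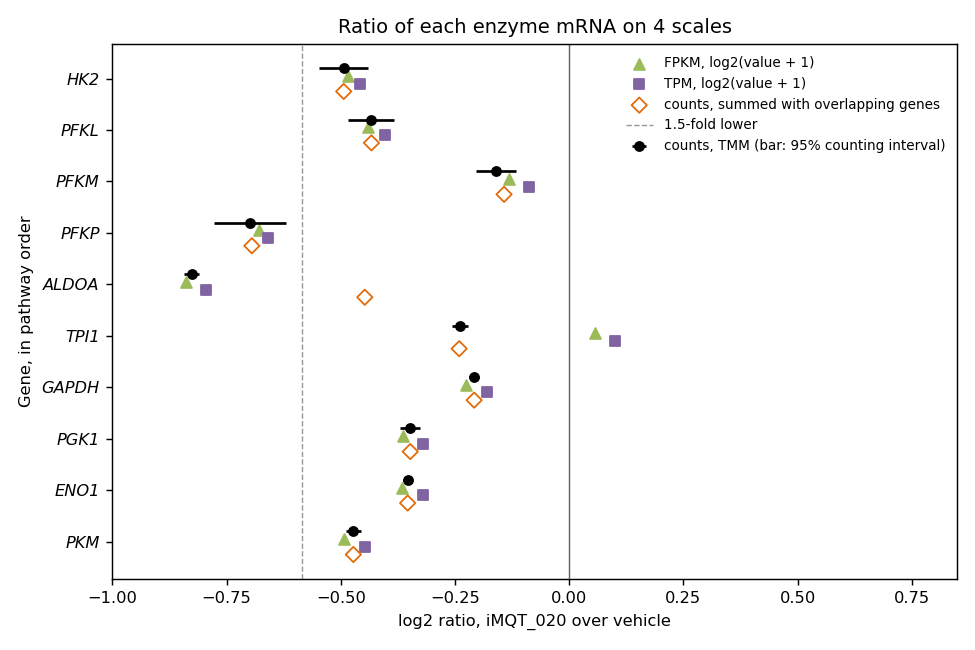
The log2 ratio, iMQT_020 over vehicle, of each enzyme mRNA by TMM-scaled counts with its counting interval, by FPKM, by TPM, and by counts summed with genes that overlap it. The scales lie close together except for ALDOA, which is at −0.83 alone and −0.45 when summed, and TPI1, which is at −0.24 by counts and 0.10 by TPM.

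HK2, the inducible hexokinase, had 4570 counts in the iMQT_020 library and 7374 in the vehicle library. It was 1.41-fold lower, with a log2 ratio of −0.49 (−0.55 to −0.44), and 12.5% of measured genes had a lower ratio. Its gene lies on chromosome 2 from 74834127 to 74893359 (GRCh38.p14, as for all positions below). HK1, the widely expressed isozyme, had 6722 counts (iMQT_020) and 9194 counts (vehicle), a log2 ratio of −0.26 (−0.30 to −0.21). HK1 was the more abundant per length, 2.29-fold above HK2 in the iMQT_020 library and 1.94-fold above it in the vehicle library. HK2 accordingly made up 30.4% of hexokinase TPM in the iMQT_020 library and 34.0% in the vehicle library. HK3 and HKDC1 had 4 counts or fewer in each library.

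Phosphofructokinase is a tetramer whose subunits come from 3 genes named for liver (PFKL), muscle (PFKM) and platelet (PFKP), and these differed in their ratios. PFKP (chromosome 10, 3067548 to 3136805) had 2023 counts in the iMQT_020 library and 3761 in the vehicle library, a log2 ratio of −0.70 (−0.78 to −0.62) or 1.62-fold lower. PFKL (chromosome 21, 44300053 to 44327373) had 5257 counts (iMQT_020) and 8133 counts (vehicle), at −0.43 (−0.48 to −0.38). PFKM (chromosome 12, 48105353 to 48146404) had 7196 counts (iMQT_020) and 9215 counts (vehicle), at −0.16 (−0.20 to −0.12). The counting intervals of the 3 did not overlap, so by counts the muscle subunit was lower by the least and the platelet subunit by the most. Centred on genes of like GC content and length, the order of PFKL (−0.13) and PFKM (−0.18) was reversed, and PFKP (−0.56) was still the lowest.

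By TPM, the makeup of phosphofructokinase mRNA differed between the libraries. These shares are not centred on GC content and length, and centring put PFKL (−0.13) above PFKM (−0.18). PFKM was also at −0.16 by counts but −0.088 on the log2(TPM + 1) scale. PFKM made up 46.6% of its TPM in the iMQT_020 library and 39.7% in the vehicle library. PFKL held 37.5% (iMQT_020) and 39.8% (vehicle), and PFKP 16.0% (iMQT_020) and 20.4% (vehicle). In the iMQT_020 library PFKM, at 87.7 TPM, stood 1.24-fold above PFKL, at 70.5 TPM. In the vehicle library the pair was level, at 93.3 TPM (PFKM) and 93.6 TPM (PFKL). The step as a whole summed to 188 TPM (iMQT_020) and 235 TPM (vehicle). SENP1, a SUMO protease gene, overlaps the start of PFKM; it had 2081 counts (iMQT_020) and 2518 counts (vehicle), and with its reads and those of MIR6505 added the PFKM locus was at −0.14.

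**Figure D3:**
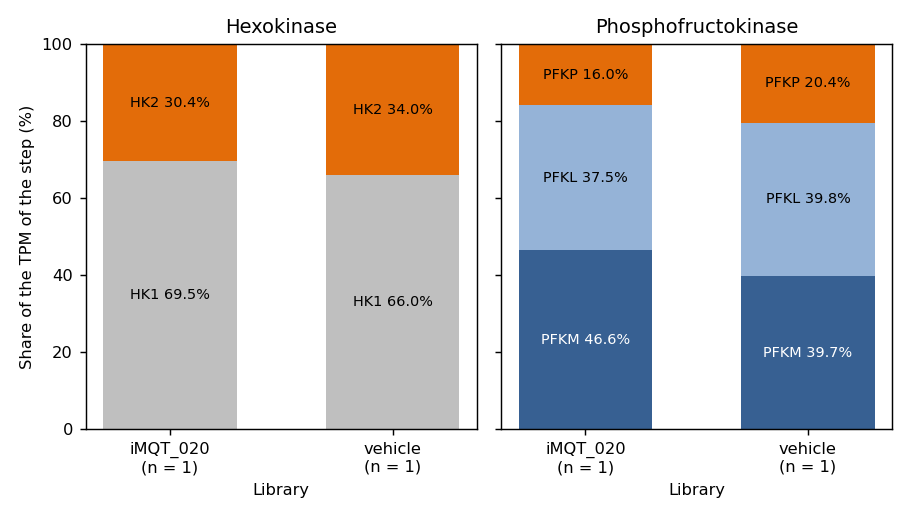
Shares of each isozyme in the summed TPM of the hexokinase and phosphofructokinase steps, in percent, with the iMQT_020 library left of the vehicle library. PFKM takes 46.6% in the iMQT_020 library and 39.7% in the vehicle library; hexokinases that hold under 1% are not visible.

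ALDOA, the aldolase of muscle and most growing cells, had the lowest ratio of the 10 when its row was read alone, and that value depended on how reads were divided at its locus. The row held 42994 counts in the iMQT_020 library and 87366 in the vehicle library, 1.77-fold lower, with a log2 ratio of −0.83 (−0.84 to −0.81). ALDOA lies on chromosome 16 from 30064279 to 30070420. A second protein-coding gene model, LOC112694756, runs from 30053151 to 30070414 and so covers nearly all of it; RefSeq lists ALDOA among the synonyms of this model. The second model had 16201 counts in the iMQT_020 library and 5142 in the vehicle library, 3.61-fold higher, at 1.85 (1.81 to 1.90).

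Counted together, the 2 aldolase A models had 59195 counts (iMQT_020) and 92508 counts (vehicle), a log2 ratio of −0.45 (−0.46 to −0.43), 1.36-fold lower. The second model took 27.4% of the reads of the locus in the iMQT_020 library and 5.56% in the vehicle library. In CPM, ALDOA was lower by 565 and LOC112694756 higher by 199, so the difference of the second model came to 35.2% of the size of that of ALDOA. By TPM the locus was at 1377 (iMQT_020) and 2029 (vehicle), a difference of −0.56 on the log2(TPM + 1) scale. By summed counts aldolase A lay between PKM and PFKL, by summed TPM between PFKP and HK2, and by counts PFKP alone of the 10 was at least 1.5-fold lower. Whether the reads of the second model come from longer transcripts or from the division of shared reads was not tested. ALDOC, the brain-type aldolase, had 365 counts (iMQT_020) and 530 counts (vehicle).

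**Figure D4:**
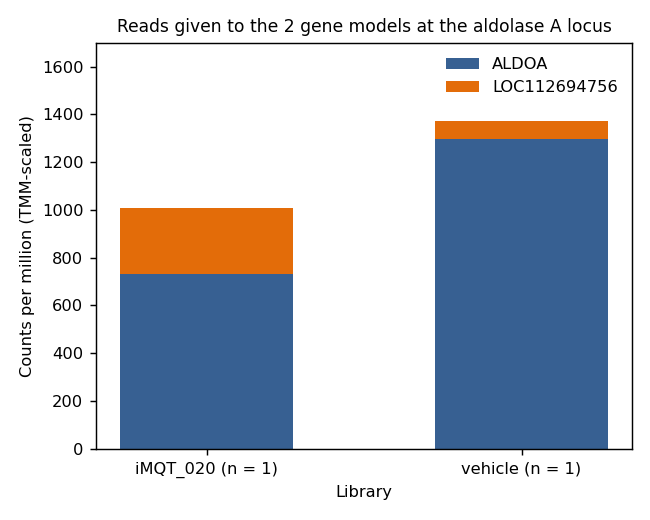
TMM-scaled counts (CPM) given to ALDOA and to the overlapping model LOC112694756, stacked, in the iMQT_020 library (left) and the vehicle library (right). The sum is 1006 CPM (iMQT_020) and 1372 CPM (vehicle), while the upper part, from the second model, is 275 CPM (iMQT_020) and 76.2 CPM (vehicle).

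TPI1, triosephosphate isomerase, was the only enzyme whose direction depended on the unit. Its counts were 46552 in the iMQT_020 library and 62970 in the vehicle library, a log2 ratio of −0.24 (−0.26 to −0.22). Its TPM was 1319 (iMQT_020) and 1229.6 (vehicle), a difference of 0.10 on the log2(TPM + 1) scale, and its FPKM was 525 (iMQT_020) and 505 (vehicle). Of 14069 genes that were measured by counts and reached 1 TPM, 4.75% had opposite signs by counts and TPM, and 3.78% were, like TPI1, below 0 by counts and above 0 by TPM.

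Counts and FPKM are linked by the transcript length used to scale them, and for TPI1 this length differed between the libraries. The length implied by counts over FPKM was 0.804 times as long in the iMQT_020 library as in the vehicle library, a difference of −19.6%. Among 1306 genes with 1 annotated transcript and at least 1000 counts in each library the same ratio was constant, from 0.9995 to 1.0005 over their central 98%. Of 8620 genes with at least 1000 counts in each library, 0.383% were at or below the value of TPI1. The other 9 enzymes lay between −3.05% (PFKM) and 0.374% (PFKP). TPI1 (chromosome 12, 6867420 to 6870948) has 4 transcripts in the deposited table, whose separate values were not analysed here. By TPM, ALDOA alone stood at 0.857 times TPI1 in the iMQT_020 library and 1.60 times in the vehicle library. With LOC112694756 added, aldolase A was at 1377 TPM (iMQT_020) and 2029 TPM (vehicle), above TPI1 in both libraries. The TPM of TPI1 also carries the difference in implied length.

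GAPDH, the dehydrogenase that generates NADH and is widely used as a loading standard, had 121669 counts in the iMQT_020 library and 161065 in the vehicle library. Its log2 ratio was −0.21 (−0.22 to −0.20), 1.16-fold lower, and 29.2% of measured genes had a lower ratio. Scaled to GAPDH, a choice made after the values were seen, PFKM was at 0.048 and TPI1 at −0.031, while ALDOA was at −0.62 and PFKP at −0.49. The gene lies on chromosome 12 from 6534517 to 6538371.

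PGK1, the first ATP-forming enzyme of the pathway, and ENO1, the main enolase, had nearly equal ratios by uncentred counts. PGK1 (chromosome X, 78104248 to 78129295) had 28164 counts (iMQT_020) and 41078 counts (vehicle), at −0.35 (−0.37 to −0.33). ENO1 (chromosome 1, 8861000 to 8878686) had 106159 counts (iMQT_020) and 155452 counts (vehicle), at −0.35 (−0.36 to −0.34). PGK1 was thus 1.27-fold lower and ENO1 1.28-fold lower. Centred on genes of like GC content and length they were apart, with PGK1 at −0.48 and ENO1 at −0.24.

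PKM, the pyruvate kinase gene whose M1 and M2 forms arise by alternative splicing, had 51621 counts in the iMQT_020 library and 82084 in the vehicle library. It was 1.39-fold lower, at −0.47 (−0.49 to −0.46), and lies on chromosome 15 from 72199029 to 72231591. The deposited row sums 14 transcripts, so the M1 and M2 forms were not separated. PKLR, the liver and red cell isozyme, had 7 counts (iMQT_020) and 0 counts (vehicle).

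Processed pseudogenes are numerous for these enzymes but took few reads here. The table held 61 rows named as numbered pseudogenes of 7 of the enzymes, with 469 counts in all in the iMQT_020 library and 490 in the vehicle library. The largest such sum, relative to its enzyme, was 0.420% of the counts of HK2 in the vehicle library.

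The 2 steps of the pathway outside the 10 genes had ratios close to their median. GPI, which converts glucose phosphate to fructose phosphate, had 24581 counts (iMQT_020) and 36651 counts (vehicle), at −0.38 (−0.40 to −0.36). PGAM1, phosphoglycerate mutase, had 20823 counts (iMQT_020) and 31328 counts (vehicle), at −0.39 (−0.42 to −0.37). PGAM4, a near-identical retrogene of PGAM1, had 216 counts (iMQT_020) and 315 counts (vehicle), and the division of reads between them is uncertain. Of 18 other isozymes and enzymes of these steps, 9 were measured, and 7 of them were below 0 (50.4% of measured genes). At least 1.5-fold lower were 0 of the 9 (9.68% of measured genes), and 0 were that much higher (6.71%). Their median was −0.26. Centred on genes of like GC content and length, 6 of the 9 were below 0, with a median of −0.12. BPGM, which makes the bisphosphoglycerate of red cells, was at 0.19 (0.11 to 0.27), with 56.2 TPM (iMQT_020) and 48.0 TPM (vehicle). ADPGK, which phosphorylates glucose with ADP, was at −0.01 (−0.07 to 0.04), with 70.9 TPM (iMQT_020) and 67.1 TPM (vehicle).

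Regulators and opposing enzymes went both ways. Of 10 such genes 7 were measured, 3 below 0 (50.4% of measured genes) and 4 above, with a median of 0.07. At least 1.5-fold lower was 1 of the 7 (9.68% of measured genes), and 1 was that much higher (6.71%). The PFKFB genes encode enzymes that make and break the fructose bisphosphate isomer that activates phosphofructokinase. PFKFB3, the isozyme with the strongest kinase activity, had 3781 counts (iMQT_020) and 4953 counts (vehicle), at −0.19 (−0.25 to −0.13). PFKFB2, the heart type, had 2631 counts (iMQT_020) and 2485 counts (vehicle), at 0.28 (0.20 to 0.36). PFKFB1, the liver type, had 59 counts (iMQT_020) and 20 counts (vehicle), at 1.73 (1.005 to 2.57), below 1 TPM in both libraries.

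TIGAR, a p53-induced phosphatase that lowers the same activator, was at 0.33 (0.25 to 0.40), with 15.7 TPM (iMQT_020) and 12.3 TPM (vehicle). PCK2, mitochondrial phosphoenolpyruvate carboxykinase, had 1313 counts (iMQT_020) and 2571 counts (vehicle), at −0.77 (−0.87 to −0.68). PC, pyruvate carboxylase, was at 0.07 (−0.05 to 0.19), with 10.6 TPM (iMQT_020) and 9.81 TPM (vehicle). FBP1, FBP2 and PCK1, enzymes of gluconeogenesis, had 12 counts or fewer in the iMQT_020 library and 19 or fewer in the vehicle library.

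Since the 10 genes shared a direction by counts, the promoters were read for ACGTG, 1 form of the core of the hypoxia response element. They were also read for CACGTG, the E-box bound by MYC, which contains ACGTG. The form of the core that begins with G, GCGTG, was not searched. For each gene 1 RefSeq window (GRCh38.p14), from 250 bases before to 50 bases after a transcript start, was taken, the one nearest the canonical GENCODE start. On either strand 4 of 10 windows held ACGTG, beside 26.8% of the 10764 windows of measured genes chosen in the same way. CACGTG was in 1 of 10 windows, beside 10.3%. Over all RefSeq windows, 11 of the 23 of these enzymes (47.8%) held ACGTG, beside 21.4% of the 35116 of any gene, and 3 of 23 (13.0%) held CACGTG, beside 7.26%. PFKM gives 7 of the 23 and PFKP 4, so a few genes weigh heavily. The 35116 are not limited to measured genes. The 4 windows that hold ACGTG are printed 5′ to 3′ on the strand of the gene, with ACGTG or its reverse complement CACGT in capitals, because they show where the letters stand in genes whose ratios run from −0.83 to −0.21.
HK2, chr2:74833877-74834176, plus strand: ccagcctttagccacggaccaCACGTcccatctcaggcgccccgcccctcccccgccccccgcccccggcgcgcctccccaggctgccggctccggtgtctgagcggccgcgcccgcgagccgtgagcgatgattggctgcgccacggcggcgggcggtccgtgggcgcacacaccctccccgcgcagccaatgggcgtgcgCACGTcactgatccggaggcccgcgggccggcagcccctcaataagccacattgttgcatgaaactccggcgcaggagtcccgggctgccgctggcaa
ALDOA, chr16:30065510-30065809, plus strand: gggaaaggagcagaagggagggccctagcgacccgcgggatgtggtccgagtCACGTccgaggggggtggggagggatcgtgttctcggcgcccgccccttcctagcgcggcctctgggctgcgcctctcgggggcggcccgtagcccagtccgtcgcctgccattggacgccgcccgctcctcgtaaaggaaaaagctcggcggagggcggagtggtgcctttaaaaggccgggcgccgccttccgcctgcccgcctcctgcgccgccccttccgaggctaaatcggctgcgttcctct
GAPDH, chr12:6535014-6535313, plus strand: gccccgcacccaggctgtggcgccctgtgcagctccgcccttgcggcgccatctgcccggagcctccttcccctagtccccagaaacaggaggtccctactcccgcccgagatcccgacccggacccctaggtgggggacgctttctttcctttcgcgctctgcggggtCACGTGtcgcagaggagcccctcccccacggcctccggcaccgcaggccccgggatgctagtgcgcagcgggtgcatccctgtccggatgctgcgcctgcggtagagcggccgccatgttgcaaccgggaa
PGK1, chrX:78103998-78104297, plus strand: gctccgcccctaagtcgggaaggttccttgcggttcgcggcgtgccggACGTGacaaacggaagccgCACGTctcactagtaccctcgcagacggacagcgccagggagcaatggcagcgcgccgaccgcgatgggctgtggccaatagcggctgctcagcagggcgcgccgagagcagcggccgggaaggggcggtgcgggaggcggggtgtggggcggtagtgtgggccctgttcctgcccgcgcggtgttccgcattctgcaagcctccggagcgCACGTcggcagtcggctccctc

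PGK1 held the letters at 3 places, beginning 202 and 183 bases before the start and 28 bases after it. HK2 held them 229 and 48 bases before the start, both on the reverse strand. ALDOA held them once, 198 bases before the start. In GAPDH they form the palindrome CACGTG from 81 bases before the start, and this window lies 747 bases from the canonical start of the gene. PFKP, lower by 0.70 on the log2 scale, held neither motif in its window, which lies 422 bases from its canonical start, nor did PFKL, PFKM, TPI1, ENO1 or PKM in theirs. The window of PFKM lies 3283 bases from its canonical start. These absences hold only for the 1 window taken per gene. PFKM has 7 windows, PFKP 4 and TPI1 2, and among their other windows some held ACGTG. The matches are letters in a window, and nothing on binding was measured.

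The ratios of all genes varied with the GC content of their transcripts, and most of the enzymes lie on the GC-rich side. Across 10 bins of measured genes the median log2 ratio was 0.15 in the poorest bin and −0.29 in the richest. PGK1, at 42.8% GC, was at −0.35 in a bin with a median of 0.08, and HK2, at 50.5%, was at −0.49 in a bin with a median of −0.02. PFKL, at 63.4%, was at −0.43 in a bin with a median of −0.29. Every enzyme was below the median of its bin.

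Centred on the median of genes of like GC content and length, 9 of 10 enzymes were below 0, beside 49.8% of the 13859 genes centred, with a median of −0.29. At least 1.5-fold lower were 0 of 10, beside 7.32% of these genes. HK2 (−0.52), PGK1 (−0.48), PFKP (−0.56) and ALDOA (−0.54) were lowest, while PFKL was at −0.13, TPI1 at −0.05 and GAPDH at 0.0092. PKM was at −0.34, ENO1 at −0.24 and PFKM at −0.18.

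**Figure D5:**
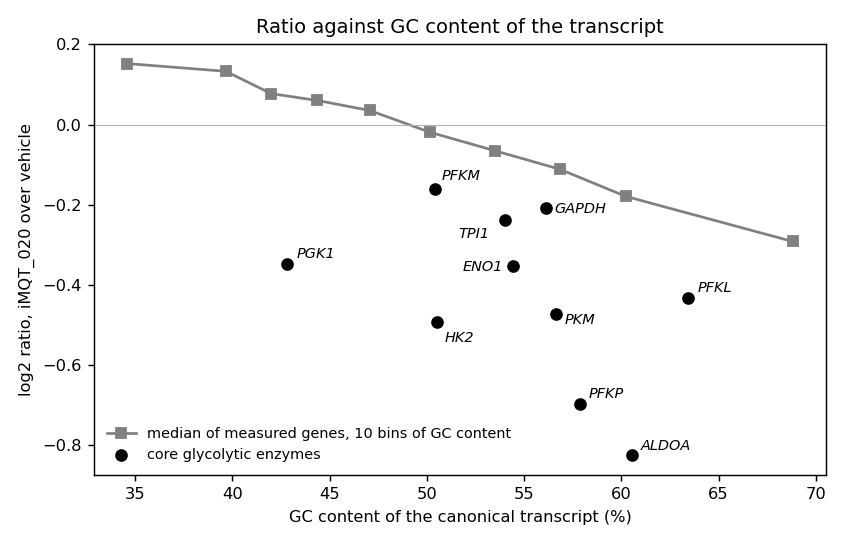
The log2 ratio, iMQT_020 over vehicle, against the GC content of the canonical transcript in percent, for the 10 enzymes (circles) and the medians of 10 bins of measured genes (squares, at the middle of each bin). The enzymes lie below the line of medians, ALDOA and PFKP farthest and GAPDH nearest.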

How the data were processed

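RNA extracted with TRIzol was sequenced as 2 libraries, 1 per treatment. HISAT2, with Bowtie2 as its aligner, placed the reads on GRCh38, per the labels' protocols. The submitters' processing notes also name StringTie and edgeR, with neither a version nor a role. For each gene the authors deposited an estimated count, a whole number without normalization that covers all its transcripts. Beside it stand the authors' FPKM, divided by transcript length and library depth, and the deposited TPM, which adds up to an equal total in both libraries. A shorter deposited table gives 20787 of the same FPKM values again. How reads were counted, whether by strand, and their length is not given in the sources used here. Reads shared by overlapping genes, on either strand, therefore cannot be told apart.

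Estimated counts were scaled by TMM (edgeR 4.0.16, R 4.3.3) over the measured genes (50 counts or more in either library), with factors of 0.995 (iMQT_020) and 1.01 (vehicle) and a prior count of 0.5. A pseudocount of 1 was added to TPM and FPKM. Intervals are exact Clopper-Pearson 95% intervals given the sum of both counts; they take estimated counts as whole reads and cover counting error only. Size factors of DESeq2 1.42.0 and other settings were alternatives. GC content and length came from canonical GENCODE 44 transcripts, for 93.6% of measured genes, in 10 by 10 bins; positions and promoters came from RefSeq GRCh38.p14. Calculations were tested on simulated data and run in Python 3.11.15, numpy 2.4.6, pandas 2.3.3 and scipy 1.17.1.

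The 10 enzymes and both lists of related genes were chosen with earlier results of these data known. The naming rule took the 10 enzymes, related genes at 10 TPM or more or at least 1.5-fold apart, pseudogene sums, overlapping genes and CDKN2A; HK3, HKDC1, PGAM4, PKLR, FBP1, FBP2 and PCK1 were named for their low counts or shared reads, after their values were seen. Some genes of the lists are not reported here.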

Additional observations from a re-analysis of the deposited data

How the results depend on the processing

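The direction of 7 enzymes was the same under all alternatives run, 13 for each except GAPDH. The others reversed in places: TPI1 was at 0.10 with deposited TPM and 0.056 with deposited FPKM, GAPDH at 0.0092 when centred on GC content and length, and PFKM at 0.048 when scaled to GAPDH. The count of 2 enzymes at least 1.5-fold lower became 1 when overlapping genes were summed, since the reads of LOC112694756 entered the sum, and 1 when scaled to GAPDH; it became 0 with a 2-fold rule and 0 when centred on GC content and length. The median of −0.39 was −0.19 when scaled to GAPDH, which subtracts the ratio of GAPDH, and the log2 ratio of summed TPM, −0.30, was −0.34 with summed FPKM, which does not force equal totals. Median-of-ratios, total-count and upper-quartile scaling, totals without mitochondrially encoded and rRNA genes, other minimum counts, a prior count of 5 and pseudogene sums kept the count at 2 and all 10 below 0. Sums with overlapping genes and scaling to GAPDH were chosen after seeing the data. No paired analysis was possible because each group has 1 library. Depth does not limit these genes, the least of which had 2023 counts; the lack of replicates does.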
